A study of Homo sapiens with 6 samples.

Results

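Aquaporins are membrane channels that form tetramers, with a pore in each subunit. The orthodox members pass water along osmotic gradients, the aquaglyceroporins also pass glycerol, and a few members sit mainly in membranes inside the cell. In heart tissue they are studied for water balance and oedema, and AQP1, the channel of red cells and small vessels, is the best known of them there. The genes described here are AQP1, AQP3, AQP4, AQP5, AQP6, AQP7 and AQP11, which were taken from the deposited table by symbol and make 7 of its 35793 genes. They were chosen by the normalized counts of these same 6 libraries, so their differences between genotypes are given as descriptions with no test. The other 7 family genes in the table, MIP, AQP2, AQP8, AQP9, AQP10, AQP12A and AQP12B, were added to show the whole family of 14.

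Total RNA came from heart muscle cells differentiated out of WTC11, an established human pluripotent line. The wild-type group was WTC11 itself, with no edit. The other group was the STK25KO line, made from WTC11 with CRISPR/Cas9 and labelled a homozygous knockout of the kinase gene STK25. Both were kept in RPMI medium with B27 supplement, had no treatment and were harvested on day 15, and each genotype had 3 biological replicates. The labels name 1 knockout line, so the edit and any other difference between the lines cannot be told apart. They do not say whether replicates came from separate differentiations, so every test here measures the spread between these libraries.

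The libraries held from 22443904 to 53224112 reads, and values are normalized counts, which are reads divided by 1 factor per library. What is called reads here are whole numbers recovered from the values, and they may be rounded estimates rather than direct counts, in which case the counting intervals given for AQP6 and AQP7 are only approximate. Cardiomyocyte markers were abundant in every library: the summed level of 10 such genes was 1258400 to 1570111 normalized counts for wild-type libraries and 1818899 to 3330221 for knockout libraries. STK25 had 8119 ± 1168 (SD, n = 3) normalized counts in the wild type and 3720 ± 251 in the knockout (limma adjusted p = 0.00903), which was not past the threshold of 0.05 without wild-type replicate 1. On the second principal component of all tested genes, which carried 24.1% of the variance, wild-type replicate 2 (score -62.7) and knockout replicate 1 (score -78.4) lay apart from the other libraries (16.1 to 60.0). Members are therefore also given without these libraries. Of all 15536 genes with a mean of at least 10 normalized counts, 12.8% had a limma adjusted p under 0.05, and in 33.4% the libraries of the genotypes did not overlap.

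The upstream sequences of the members differ in base composition, and those of AQP4, AQP3 and AQP5 are shown because AQP4 had the largest difference among the members higher in the knockout and the AQP3 and AQP5 windows lie at the other end of base composition. They are RefSeq sequences on GRCh38.p14, from the table of windows of 250 bases before a start, in which 5 of the 7 members were found. AQP4 is shown for chr18:26865819-26866053 on the minus strand, AQP3 for chr9:33447634-33447843 on the minus strand and AQP5 for chr12:49961622-49961869 on the plus strand. They are printed 5′ to 3′ on the strand of the gene, less any base that GENCODE 29 puts in an exon. Capitals mark matches to any of the 7 motifs searched.
AQP4: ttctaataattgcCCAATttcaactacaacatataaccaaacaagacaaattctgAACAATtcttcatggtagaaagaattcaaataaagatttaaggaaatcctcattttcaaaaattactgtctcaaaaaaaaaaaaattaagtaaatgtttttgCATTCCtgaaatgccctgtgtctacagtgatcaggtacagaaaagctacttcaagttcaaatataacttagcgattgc
AQP3: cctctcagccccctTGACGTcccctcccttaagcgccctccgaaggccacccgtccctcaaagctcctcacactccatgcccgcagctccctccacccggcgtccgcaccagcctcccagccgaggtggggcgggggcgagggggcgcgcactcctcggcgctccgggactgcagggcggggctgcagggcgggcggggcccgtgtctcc
AQP5: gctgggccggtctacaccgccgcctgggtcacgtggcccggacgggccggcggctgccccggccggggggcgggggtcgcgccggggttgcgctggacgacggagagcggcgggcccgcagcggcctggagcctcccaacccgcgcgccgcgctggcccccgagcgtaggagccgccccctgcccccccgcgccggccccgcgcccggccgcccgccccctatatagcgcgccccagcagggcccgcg

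Over the whole 250 bases, the AQP4 window ending at its outermost start was 30.4% G and C, and 1.75% of the 35116 RefSeq windows had a lower share. Its windows at the middle and innermost starts were less extreme, at 42.0% and 45.2%, with 16.4% and 22.4% of windows lower. The AQP3 window was 73.6% and the AQP5 window 84.4% G and C, the latter above 99.4% of all windows. AQP1 (65.2%) and AQP7 (60.8%) were closer to the median of 58.0%. The motifs were searched on both strands and were chosen after these sequences had been seen. They were TATAAA, the core promoter box (in 10.7% of all windows), CCAAT (32%), CATTCC, the core bound by TEAD factors (11.9%), AGATAA, bound by GATA-family factors (9.17%), AACAAT, bound by SOX factors (8.98%), TAATTA, bound by homeobox factors (4.35%), and TGACGT, part of the cAMP response element (7.10%). No 2 of them share letters at the matches found here. The AQP4 window held CCAAT at 237 to 233 bases before the start, AACAAT at 195 to 190 and CATTCC at 93 to 88. TATAAA lay 30 to 25 bases before the start in AQP1 and 32 to 27 in AQP3, in each case inside an exon of a longer GENCODE transcript. The AQP3 window also held TGACGT at 236 to 231 bases, and the AQP7 window CCAAT at 205 to 201. AQP4 had 3 RefSeq starts. The middle one, at 26865707, had another CCAAT 70 to 66 bases before it and the same CATTCC, there 189 to 184 bases before it, and the innermost, at 26862910, had TATAAA at 41 to 36 bases before it. The AQP5 window held none of these motifs as spelled. Variant spellings were not searched, and it does hold TATATA near its printed end. A match describes the sequence and is not evidence of binding.

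Of the 7 members, AQP4 and AQP1 had higher means in the knockout and AQP3, AQP5, AQP6, AQP7 and AQP11 had lower ones. All 7 reached the mean of 10 normalized counts needed to enter the fit, but AQP5, AQP6 and AQP7 did so only through the wild type, where they were higher. In 6 of the 7 the libraries of the genotypes did not overlap (33.4% among all tested genes), 2 of them higher in the knockout (16.2%) and 4 lower (17.2%). With limma 2 of the 7 had an adjusted p under 0.05, against 12.8% of all tested genes. Because this comparison chose the members, nothing is read from these counts. Log2 fold changes are of value + 1, so those of low genes are too small, and their standard errors (SE) come from limma after moderation. Fewer cells of a type and less RNA per cell cannot be told apart in these bulk samples.

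**Figure D1:**
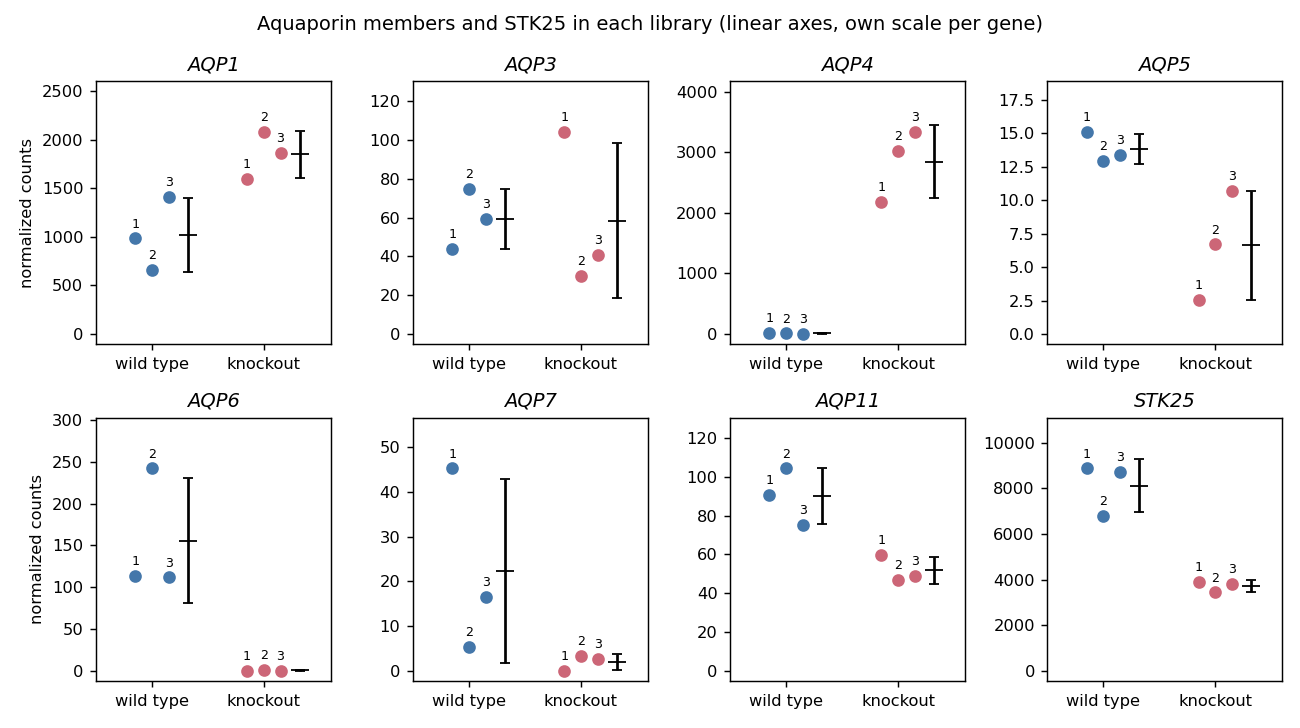
Normalized counts (linear y axis, own scale per panel) of the 7 members and STK25 in 3 wild-type (blue) and 3 knockout (red) libraries, numbered by replicate, with the mean and SD in black. AQP4 spans 9.57 to 25.7 for the wild type and 2180 to 3339 for the knockout, while AQP6 is at most 1.11 in the knockout and AQP3 overlaps between genotypes.

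AQP4 is the main water channel of astrocyte endfeet and is also found in fast skeletal muscle. It was close to the detection limit in the wild type and among the abundant family members in the knockout. The gene (ENSG00000171885.14) occupies positions 26852038 to 26865818 of chromosome 18, minus strand, in GENCODE 29 on GRCh38, the annotation used for all gene positions here. Wild-type replicates 1, 2 and 3 gave 25.7, 10.7 and 9.57 normalized counts, from 17, 14 and 15 reads. The knockout libraries had 2180, 3015 and 3339 normalized counts, from 1715, 2705 and 3757 reads. All 3 knockout libraries were above all 3 wild-type libraries, and the lowest knockout value was 84.9 times the highest wild-type value. The means were 15.3 ± 9.0 and 2845 ± 598 (SD, n = 3 each), a 186-fold ratio and a log2 fold change of 7.56 (SE 0.42). Without the 2 libraries that stood apart it was also 7.56, and with a pseudocount of 10 it was 6.85. The read numbers are of the whole gene, so its alternative starts and protein forms were not separated.

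AQP1, the water channel of red cells, small vessels and the kidney's proximal tubule, was the most abundant family member in the wild type and its difference between genotypes was far smaller than that of AQP4. It lies on chromosome 7 from 30911694 to 30925516 (ENSG00000240583.11, plus strand). Its values were 983, 657 and 1413 normalized counts in wild-type replicates 1, 2 and 3 and 1598, 2081 and 1860 in the knockout. Every knockout library exceeded every wild-type library, but the lowest knockout value was only 1.13 times the highest wild-type value. The means were 1018 ± 379 and 1846 ± 242 (SD, n = 3 each), a 1.81-fold ratio with a log2 fold change of 0.92 (SE 0.30). When libraries were scaled to equal totals the genotypes overlapped, with a lowest knockout value of 1269 and a highest wild-type value of 1646, and the log2 fold change was 0.64. Without the 2 libraries that stood apart it was 0.74.

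AQP5 and AQP6 are neighbours on chromosome 12, in a cluster with AQP2. AQP5 is the channel of salivary and tear glands and of the lung's airspaces. AQP6 is kept in vesicles inside the cell and also passes anions. AQP2, the vasopressin-regulated channel of the collecting duct, ends 2988 bases before AQP5 (49961870 to 49965681), which in turn ends 1512 bases before AQP6 (49967194 to 49977139). All 3 are on the plus strand.

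AQP6 (ENSG00000086159.12) was detected in every wild-type library and almost not in the knockout. Normalized counts in the wild type were 113, 242 and 112, from 75, 318 and 175 reads. In the knockout, replicate 2 had 1 read (1.11 normalized counts) and replicates 1 and 3 had 0. The groups were thus far apart, and within the wild type replicate 2 was 2.17 times the lowest library. Over the summed reads, 568 against 1, the wild type was 450-fold higher per unit of depth, with an exact 95% interval of 80.5 to 17821 that covers counting error only. The fitted log2 fold change of -6.83 (SE 0.67) depended on the pseudocount, running from -9.30 with 0.1 to -3.91 with 10. Without the 2 libraries that stood apart it was -6.29.

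AQP5 (ENSG00000161798.6) was low in both genotypes. It had 15.1, 12.9 and 13.4 normalized counts in the wild type, the tightest values of any member, from 10, 17 and 21 reads. In the knockout it had 2.54, 6.69 and 10.7, from 2, 6 and 12 reads. The means were 13.8 ± 1.14 and 6.63 ± 4.06 (SD, n = 3 each), and the log2 fold change was -1.12 (SE 0.72). The knockout values lay below the wild-type values but spread 4.19-fold, and with quantile normalization the groups overlapped. Without the 2 libraries that stood apart the log2 fold change was -0.69. AQP2 had 5 reads in wild-type replicate 3 and 0 in the other 5 libraries.

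AQP3 and AQP7 are aquaglyceroporins. AQP3 serves skin, gut and the collecting duct, and AQP7 releases glycerol from fat cells. They lie side by side on the minus strand of chromosome 9, AQP7 (ENSG00000165269.12) from 33383179 to 33402682 and AQP3 (ENSG00000165272.15) from 33441154 to 33447633, with 38471 bases between them. Their levels did not rise and fall together. Within each genotype the libraries ran in opposite order for the 2 genes, though AQP7 had at most 3 reads in any knockout library.

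AQP7 had 45.3, 5.33 and 16.6 normalized counts in the wild type, from 30, 7 and 26 reads, and 0, 3.34 and 2.67 in the knockout, from 0, 3 and 3 reads. The wild-type libraries differed 8.5-fold among themselves, the widest wild-type range of any member. The groups were separated only by the step from 3.34 to 5.33 normalized counts. Over the summed reads, 63 against 6, the wild type was 8.33-fold higher with an exact 95% interval of 3.62 to 23.5 for counting error, and the fitted log2 fold change was -2.78 (SE 1.05). The fitted value ran from -4.03 with a pseudocount of 0.1 to -1.25 with 10, and moved to -2.07 when wild-type replicate 1 was left out, to -3.50 when wild-type replicate 2 was, and to -2.11 when knockout replicate 1 was. Without both libraries that stood apart it was -2.84. The 5 annotated AQP7 pseudogenes were listed at 0 in every library. Reads of near-identical copies could have been assigned to AQP7, so its value is uncertain.

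AQP3 had nearly equal means in the genotypes, 59.3 ± 15.4 in the wild type and 58.4 ± 40.1 in the knockout (SD, n = 3 each). Its wild-type values were 43.8, 74.6 and 59.3 normalized counts, from 29, 98 and 93 reads, and the knockout libraries 104, 30.1 and 40.9, from 82, 27 and 46 reads. Knockout replicate 1 was the highest of the 6 libraries and the other two knockout libraries were the lowest. The log2 fold change was -0.19 (SE 0.55) and changed sign, to 0.17, without knockout replicate 2. Without knockout replicate 1 both remaining knockout libraries lay below all wild-type libraries, and without that library and wild-type replicate 2 the log2 fold change was -0.53.

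AQP11, an unorthodox member of the endoplasmic reticulum, was lower in the knockout and varied least between replicates. Its values were 90.6, 104 and 75.3 normalized counts in the wild type, from 60, 137 and 118 reads, and 59.7, 46.8 and 48.9 in the knockout, from 47, 42 and 55 reads. No knockout library reached the lowest wild-type library. The means were 90.1 ± 14.5 and 51.8 ± 6.95 (SD, n = 3 each), 57.5% of the wild-type level, with a log2 fold change of -0.78 (SE 0.36). It was -0.78 without the 2 libraries that stood apart and -1.06 with equal totals. AQP11 (ENSG00000178301.3, chromosome 11, 77589391 to 77610355) lies wholly within CLNS1A on the opposite strand.

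**Figure D2:**
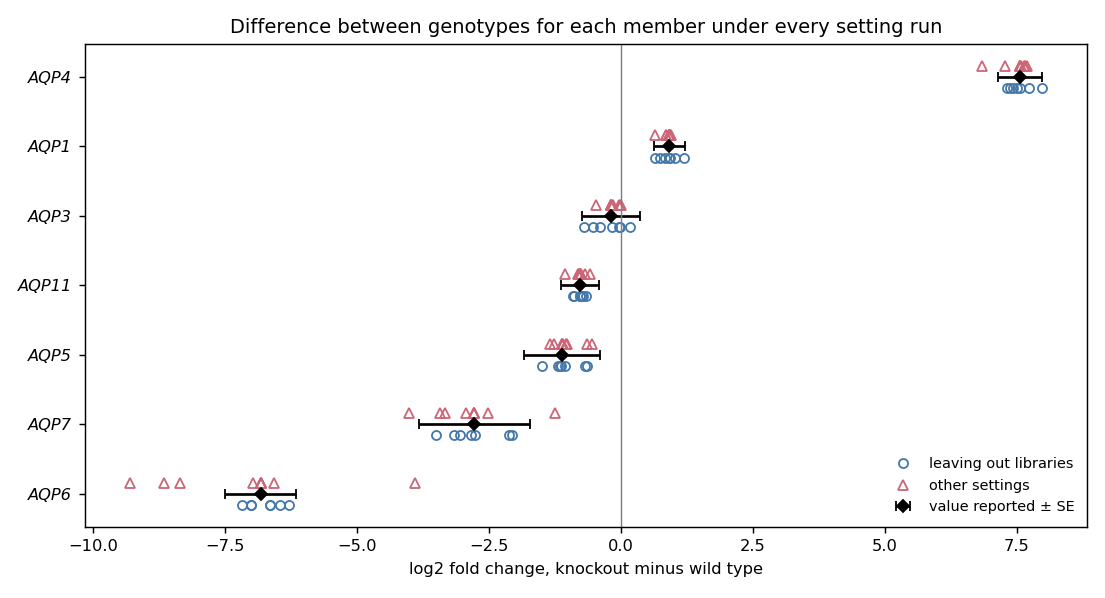
Log2 fold change (x axis, knockout minus wild type) of each member as reported with its SE (black diamonds), with libraries left out (blue circles) and under the other settings (red triangles). AQP3 is the only member with points on both sides of 0, at 0.17 without knockout replicate 2, and AQP6 runs from -9.30 to -3.91.

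Spread between replicates differed among the members. The residual SD of log2 values was 0.21 for AQP11, 0.41 for AQP1, 0.57 for AQP4, 0.62 for AQP5, 0.63 for AQP6, 0.70 for AQP3 and 1.3 for AQP7, against a median of 0.43 over all tested genes. Several family genes had their extreme values in the libraries that stood apart on the second component. That component comes from all tested genes, and the share of them that is extreme in both libraries was not counted. In both genotypes the library that stood apart was the lowest for AQP1 (657 and 1598 normalized counts) and the highest for AQP3 (74.6 and 104), AQP11 (104 and 59.7) and AQP8 (143 and 194). AQP5 (12.9 and 2.54, from 17 and 2 reads) and AQP7 (5.33 and 0, from 7 and 0 reads) were also lowest in both, as AQP1 was. Other family genes did not follow this: AQP10 was highest in wild-type replicate 2 (316) and lowest in knockout replicate 1 (99.1), AQP6 was highest in the first (242) and at 0 in the second, and AQP4 was lowest in knockout replicate 1 but in the middle in wild-type replicate 2. The same 2 libraries had the highest summed cardiomyocyte markers of their genotype (1570111 and 3330221 normalized counts) and the lowest summed fibroblast markers (12893 and 7662). MYL7 (739950 and 2324410) was the largest part of the cardiomyocyte sums, and TNNT2, TNNI1 and TNNI3 were also highest in both libraries. ACTN2 (30452 and 67930), MYH6 (91792 and 55128) and MYH7 (49595 and 177105) were instead the lowest of their genotype in both. What part marker levels have in the members' spread was not tested.

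**Figure D3:**
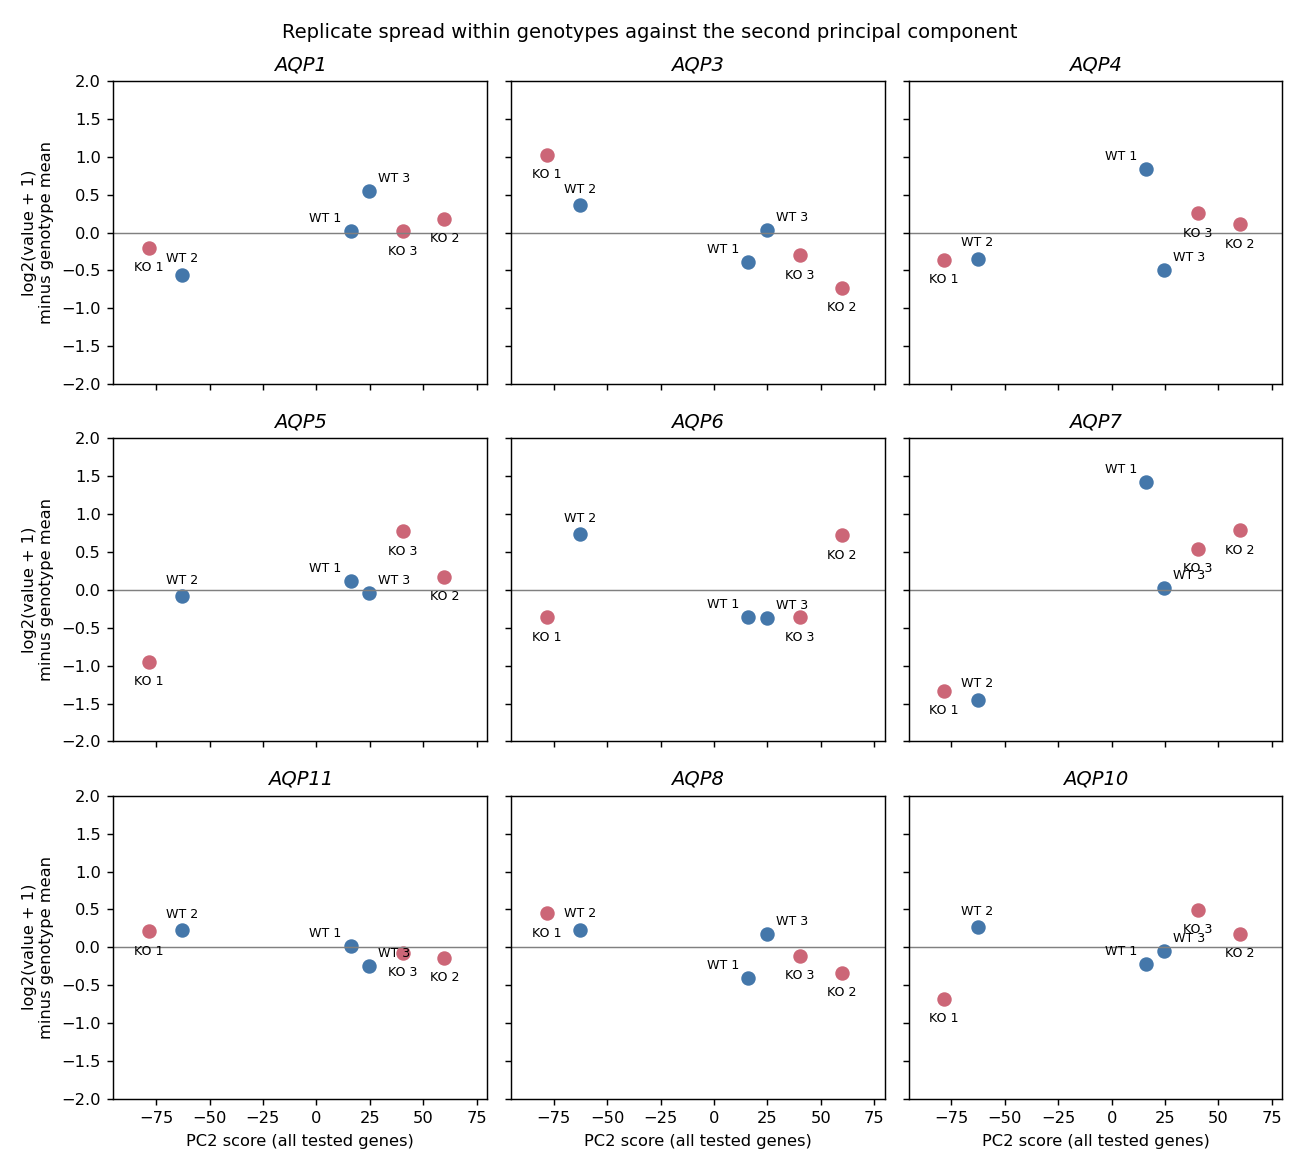
Deviation of log2(value + 1) from the genotype mean (y axis) against the library's score on the second principal component of all tested genes (x axis), for wild-type (blue) and knockout (red) libraries. Wild-type replicate 2 and knockout replicate 1, at scores of -62.7 and -78.4, are the lowest of their genotype for AQP1, AQP5 and AQP7 and the highest for AQP3, AQP11 and AQP8, while AQP4, AQP6 and AQP10 show no such shared order.

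Levels of different members were compared as normalized counts per kilobase of the longest protein-coding transcript. In the wild type the order was AQP1 (349 ± 130), AQP10 (118 ± 20.2), AQP8 (91.4 ± 20.5), AQP6 (69.4 ± 33.4), AQP11 (41.9 ± 6.76), AQP3 (31.7 ± 8.24), AQP5 (9.53 ± 0.785), AQP7 (7.78 ± 7.16) and AQP4 (2.90 ± 1.71) (SD, n = 3 each). AQP1 stood above the other members in every wild-type library, while AQP10, AQP8 and AQP6 overlapped. Within each wild-type library AQP10 was still above AQP8. Lower in the order, AQP11 overlapped AQP3, and AQP7 overlapped AQP5 and AQP4. In the knockout the order was AQP1 (634 ± 83.0), AQP4 (539 ± 113), AQP8 (108 ± 31.6), AQP10 (74.4 ± 28.2), AQP3 (31.2 ± 21.4), AQP11 (24.1 ± 3.23), AQP5 (4.57 ± 2.80), AQP7 (0.696 ± 0.614) and AQP6 (0.165 ± 0.287). AQP1 and AQP4 overlapped there, although AQP1 was the higher within each knockout library, barely so in replicate 3 (639 and 633). Further down, AQP8 overlapped AQP10, AQP10 overlapped AQP3, AQP3 overlapped AQP11 and AQP7 overlapped AQP6. AQP11 was above AQP3 in knockout replicates 2 (21.8 and 16.1) and 3 (22.7 and 21.8), and below it in replicate 1 (27.8 and 55.7). MIP and AQP9 were under 3 on this scale in every library.

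The sum over the 14 family genes was 723 ± 96.8 per kilobase in the wild type and 1418 ± 157 in the knockout (SD, n = 3 each), with no overlap. With median transcript lengths the sums were 1054 ± 145 and 3352 ± 512. By the longest transcript AQP4 made up 0.419% ± 0.284 of that sum in the wild type and 37.8% ± 4.11 in the knockout. AQP1 made up 47.6% ± 13.0 and 44.7% ± 2.96, and AQP6 9.83% ± 5.26 and 0.0111% ± 0.0192. The transcript chosen changed both orders. With median lengths in the wild type AQP6 (139 ± 66.7) came above AQP10 (131 ± 22.6) and AQP8 (94.2 ± 21.2), and AQP7 stood at 21.1 ± 19.4. AQP4 (11.1 ± 6.53) came above AQP5 (9.53 ± 0.785). AQP6 overlapped AQP10 and AQP8, and AQP4 overlapped AQP5, but the lowest AQP10 value (112) was above the highest AQP8 value (109). In the knockout the length mattered most for AQP4, whose protein-coding transcripts have a longest length of 5274 and a median length of 1378 bases. With median lengths AQP4 held 61.2% ± 3.95 of the knockout sum and AQP1 30.5% ± 2.59, so the order of these genes in the knockout depends on the length used.

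**Figure D4:**
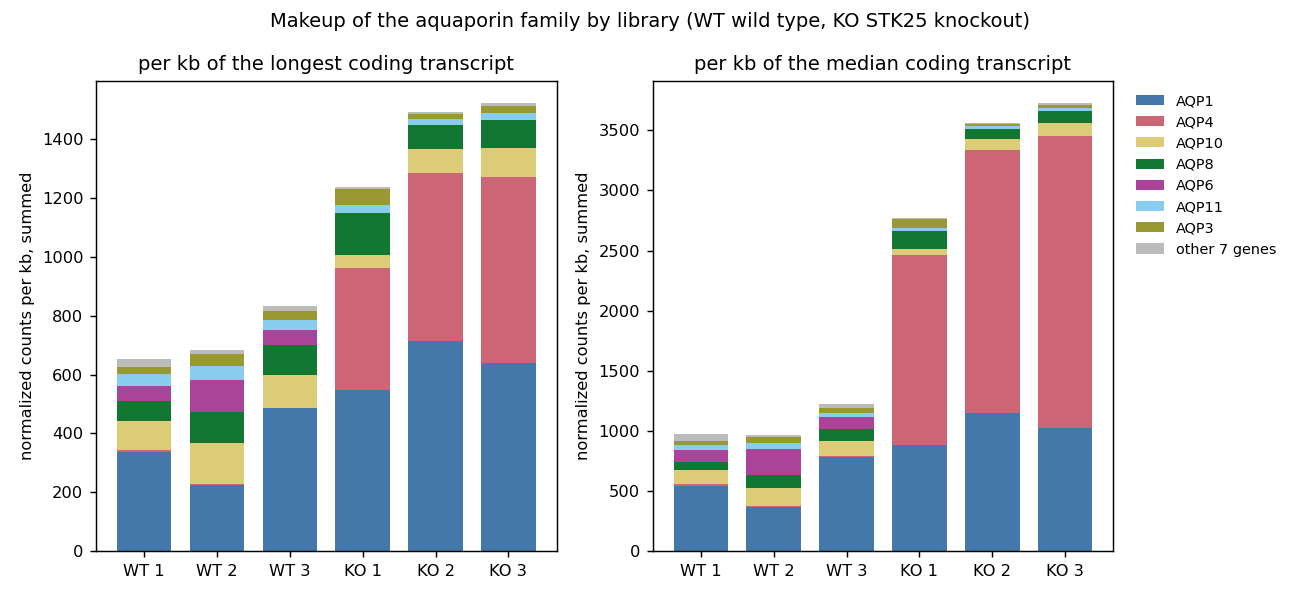
Summed normalized counts per kilobase (y axis, from 0) of the 14 aquaporin genes in each library, split by gene, with lengths taken from the longest (left) or the median (right) protein-coding transcript. AQP4 is under 2% of every wild-type bar and from 33.4% to 41.6% (left) or from 57.2% to 65.1% (right) of the knockout bars.

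The other 7 family genes were left out of the members with these values known, so their tests are not independent of that choice. Of them 2 reached the mean needed for the test. AQP8, which passes water, ammonia and hydrogen peroxide, had 92.1, 143 and 137 normalized counts in the wild type and 194, 113 and 132 in the knockout. The genotypes overlapped, with a log2 fold change of 0.22 (SE 0.36, limma adjusted p = 0.749) that was negative, at -0.058, with equal totals and, at -0.0023, without knockout replicate 1. AQP10, an aquaglyceroporin of the gut, had 227, 316 and 255 in the wild type and 99.1, 181 and 225 in the knockout. Its knockout libraries were all lower, but the lowest wild-type value was only 1.01 times the highest knockout value, and the log2 fold change was -0.72 (SE 0.37, limma adjusted p = 0.253). Neither gene passed the threshold. AQP9 had at most 8.90 and MIP at most 3.81 normalized counts in any library, and AQP12A and AQP12B were at 0 in all 6, which at these depths allows up to 1.91 to 4.53 normalized counts (3 reads).

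Overlapping genes were examined because strand use is not stated, so reads of genes on opposite strands cannot be told apart. The end of AQP6 overlaps RACGAP1, a cell division gene on the other strand, by 217 bases. RACGAP1 had 1907 ± 688 normalized counts in the wild type and 1051 ± 559 in the knockout (SD, n = 3 each; limma adjusted p = 0.252). It held at least 455 normalized counts in each knockout library, in which AQP6 had at most 1.11. CLNS1A, which contains AQP11, encodes a chloride channel regulator, with 3356 ± 738 in the wild type and 2350 ± 634 in the knockout (log2 fold change -0.52, SE 0.26, limma adjusted p = 0.239). AQP4 lies inside the antisense gene AQP4-AS1, which is not analysed here. Its protein-coding neighbours on chromosome 18 were not past the threshold: KCTD1 had 202 ± 90.3 and 216 ± 89.6 normalized counts (limma adjusted p = 0.908), and CHST9 had 16.1 ± 6.23 and 37.2 ± 6.62 (limma adjusted p = 0.192; SD, n = 3 each). Every knockout library was above every wild-type library for CHST9, as for 16.2% of all tested genes. Its log2 fold change was 1.22 (SE 0.54). AC025154.2, antisense to the start of AQP5, is not analysed here either. AC004691.2, which overlaps AQP1 on the same strand, had at most 3.83.

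The genes whose levels were most like a member's were found as the smallest root mean square distance of log2 values, each less its own mean, over the 6 libraries and 13035 genes with a mean of at least 50. For AQP4 they were APOB (distance 0.55), PTCHD1 (0.58), EN1 (0.61), TGM3 (0.75) and LHX8 (0.81). PTCHD1 went from 5.83 ± 1.90 to 780 ± 112 normalized counts and TGM3 from 0.213 ± 0.368 to 206 ± 114 (SD, n = 3 each). No gene was as close to AQP4 as the nearest genes were to AQP1 (CLTRN at 0.10 and SGK1 at 0.10), AQP3 (WIZ at 0.10) or AQP11 (CAMK2B at 0.04 and SGF29 at 0.05). The log2 values were not scaled, so distances tend to be larger for genes with large changes or few reads. They do not rank how unusual a member's pattern is. For AQP6 the nearest genes were TMEM176A (0.38) and LCN9 (0.43). AQP5 and AQP7 had means under 50 and were left out.

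Genes that work with aquaporins were then counted, beside the 5.97% of all tested genes called higher and the 6.79% called lower in the knockout with limma, and their median log2 fold change of 0.01. AQP4 is held in the membrane by the dystrophin complex. Of 16 tested genes of this complex and its glial partners 1 rose and 2 fell, with a median of 0.07. DMD, encoding dystrophin, rose from 845 ± 259 to 2451 ± 499 (SD, n = 3 each; a difference of 1.56 log2 units and a limma adjusted p = 0.0107, but 0.0517 with equal totals). SGCA, a sarcoglycan, fell from 1659 ± 453 to 406 ± 116 (log2 fold change -2.03, limma adjusted p = 0.00431). LAMA2, a laminin chain, fell by 0.99 on the log2 scale (limma adjusted p = 0.0231, up to 0.101 without wild-type replicate 1 or 3 or knockout replicate 2 or 3, and over 0.05 with eBayes without a trend). KCNJ10 and MLC1, which accompany AQP4 in astrocytes, had means of at most 3.83 normalized counts in either genotype.

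Glycerol handling genes are the partners of AQP3 and AQP7. Of 11 tested 1 rose and 1 fell, with a median log2 fold change of -0.07. GPD1, the cytosolic glycerol-3-phosphate dehydrogenase, fell from 214 ± 28.0 to 26.6 ± 6.49 normalized counts (n = 3 each, SD; a difference of -2.98 log2 units and a limma adjusted p = 0.00246). PNPLA3, a lipid droplet acyltransferase and lipase, rose from 141 ± 48.9 to 516 ± 67.3 (log2 fold change 1.93, limma adjusted p = 0.0109). GK, which phosphorylates glycerol, had 293 and 263 (limma adjusted p = 0.769).

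Cell volume and osmotic genes set or sense the gradients that water follows. Of 24 tested 1 rose and 1 fell, with a median of -0.30. AKR1B1, the aldose reductase that makes the osmolyte sorbitol, fell from 24191 ± 2963 to 3767 ± 311 normalized counts (n = 3 each, SD; a difference of -2.68 log2 units and a limma adjusted p = 0.000243). SLC12A7, a potassium-chloride cotransporter, rose from 1305 ± 431 to 3849 ± 607 (log2 fold change 1.61, limma adjusted p = 0.0116, but 0.0561 with equal totals and 0.0517 without knockout replicate 3). NFAT5, the factor that induces osmotic genes, had 736 and 645 (limma adjusted p = 0.722).

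Enzymes of hydrogen peroxide, which AQP3, AQP8 and AQP11 can pass, were counted last. Of 18 tested 1 rose and 1 fell, with a median of 0.36. CAT, encoding catalase, fell from 2125 ± 140 to 11.7 ± 4.45 normalized counts (n = 3 each, SD; a difference of -7.45 log2 units, SE 0.34 and a limma adjusted p = 5.66e-05), with knockout libraries at 16.5, 7.80 and 10.7. SOD2, the mitochondrial superoxide dismutase, rose from 4224 ± 616 to 8095 ± 988 (log2 fold change 0.94, limma adjusted p = 0.0211, but 0.116 with equal totals and up to 0.0790 without wild-type replicate 1 or 3 or knockout replicate 2 or 3).

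Markers of other cells known for aquaporins moved in several directions, and their part in the members' values was not tested. For astrocytes and neural cells, known for AQP4, 3 of 11 tested markers rose and 1 fell, with summed levels of 10081 to 10679 normalized counts in the wild type and 18444 to 22318 in the knockout. SOX2 (1.91 ± 1.90 to 138 ± 41.7), TUBB3 (62.3 ± 40.1 to 449 ± 137) and PAX6 (4.22 ± 2.57 to 53.4 ± 37.4) rose (SD, n = 3 each; limma adjusted p = 0.00256, 0.00997 and 0.0364). SLC1A3, a glutamate transporter abundant in astrocytes, had 4362 ± 1625 and 9857 ± 4067 normalized counts (limma adjusted p = 0.120), and NES, the neural progenitor filament, 5838 ± 1697 and 9771 ± 5567 (limma adjusted p = 0.340). These uncalled genes made up nearly all of the summed level. PAX6 did not keep an adjusted p under 0.05 in any of the 6 fits without 1 library (up to 0.127). Among other astrocyte genes S100B fell from 24.3 ± 11.6 to 1.39 ± 0.346 (limma adjusted p = 0.0261, up to 0.102 without 1 library other than knockout replicate 1), and GFAP had 79.2 and 46.3 and ALDH1L1 21.7 and 30.0 normalized counts (limma adjusted p = 0.549 and 0.704).

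For skeletal muscle, also known for AQP4, 1 of 5 tested markers rose and 2 fell, with summed levels of 197 to 294 and of 1046 to 1975 normalized counts. MYH3, the embryonic myosin, rose from 40.4 ± 16.1 to 1375 ± 475 (SD, n = 3 each; limma adjusted p = 0.000449). The fast myosins MYH2 and MYH4 fell from 36.7 ± 18.4 and 45.9 ± 10.4 to 0.847 ± 1.47 and 0.372 ± 0.643 normalized counts (limma adjusted p = 0.0147 and 0.00463), MYH2 with up to 0.0847 without wild-type replicate 1 or 3 or knockout replicate 3. Of the muscle-defining factors MYOD1, MYF5 and PAX7 were at 0 in every library. MYOG had 15.2 normalized counts in wild-type replicate 2 and 2.54, 3.34 and 4.44 in the knockout, MYF6 had 3.19 in wild-type replicate 3 and 0 elsewhere, and PAX3 had means of 16.4 and 7.15 (limma adjusted p = 0.431).

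For endothelium, known for AQP1, 1 of 5 tested markers rose and 0 fell, with summed levels of 1278 to 1401 and of 2093 to 2893 normalized counts. The riser was ESAM (13.5 ± 7.12 to 712 ± 85.3, SD, n = 3 each; limma adjusted p = 0.000496), while CDH5 and VWF had means of at most 2.52 in either genotype. EGFL7, which overlapped (means of 1017 and 1203, limma adjusted p = 0.703), was the largest part of the sum in every library. PECAM1 had 38.7 and 35.3 normalized counts (limma adjusted p = 0.983). For red cells, 1 of 3 tested markers fell and 0 rose, ALAS2 from 83.9 ± 22.7 to 2.15 ± 2.81 (limma adjusted p = 0.00667). Without overlap 2 of the 3 were lower (17.2% among all tested genes), ALAS2 and the uncalled KLF1 (26.9 and 11.7, limma adjusted p = 0.264). For epicardium and mesothelium 2 of 7 rose, TCF21 from 22.2 ± 30.3 to 467 ± 67.9 and ALDH1A2 from 6.37 ± 5.84 to 189 ± 87.3 (limma adjusted p = 0.00952 and 0.0141), with overlapping summed levels of 2660 to 4962 and of 2602 to 5598 normalized counts. Most of these sums was the uncalled LRRN4 (3774 and 3028, limma adjusted p = 0.619). Without overlap 4 of the 7 were higher in the knockout (16.2% among all tested genes) and 0 were lower. They included the uncalled gene WT1 (17.3 and 112) and TBX18 (109 and 244), with limma adjusted p = 0.0584 and 0.0898. ALDH1A2 had an adjusted p of 0.0660 without knockout replicate 3 and 0.0541 with a pseudocount of 0.1.

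For epithelium, known for AQP3 and AQP5, 2 of 10 tested markers rose and 1 fell, and summed levels of 125314 to 132998 and of 282080 to 313639 normalized counts came almost wholly from keratins. KRT8 rose by 1.14 and KRT18 by 1.61 on the log2 scale (limma adjusted p = 0.0218 and 0.00348) and KRT19 fell by 1.38 on the log2 scale (limma adjusted p = 0.00341). KRT8 had adjusted p-values up to 0.106 without any 1 library other than knockout replicate 1, and from 0.0693 to 0.219 with equal totals, with no filter and with quantile normalization. The median log2 fold change of the 10 was -0.48. Without overlap 4 of them were lower in the knockout (17.2% among all tested genes) and 2, KRT8 and KRT18, were higher (16.2%). The 4 lower ones were KRT19 and the uncalled KRT7 (26.4 and 2.13 normalized counts), CLDN3 (47.0 and 10.4) and CLDN4 (18.7 and 1.57), with limma adjusted p = 0.0848, 0.102 and 0.0790 for the last 3. CDH1 had 12.2 and 18.0 normalized counts (limma adjusted p = 0.899). For fat cells, known for AQP7, 1 of 6 markers, CFD, could be tested and was not past the threshold (limma adjusted p = 0.0982), and ADIPOQ and PLIN1 had means of at most 5.35.

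Of the remaining lists, fibroblast markers had 2 of 7 higher (COL3A1 and DCN, limma adjusted p = 0.0172 and 0.0276) and 1 lower (COL1A2, 7514 ± 2839 to 240 ± 124, SD, n = 3 each; limma adjusted p = 0.000616). COL3A1 had adjusted p-values up to 0.0723 without wild-type replicate 1 or knockout replicate 2 or 3, and DCN up to 0.112 without wild-type replicate 1 or 3 or knockout replicate 2 or 3. Endoderm and liver markers had 1 of 3 called lower, AFP (104 ± 52.4 to 2.03 ± 1.83, limma adjusted p = 0.00661). All 3 were lower in the knockout without overlap (17.2% among all tested genes). The uncalled ones were APOA1 (2026 and 1195) and TTR (45.6 and 8.25), with limma adjusted p = 0.136 and 0.0996. Among the 10 cardiomyocyte markers NKX2-5 alone passed, falling from 21091 ± 2088 to 6444 ± 498 (SD, n = 3 each; limma adjusted p = 0.00135). Without overlap 5 of the 10 were higher in the knockout (16.2% among all tested genes) and 2 were lower (17.2%). Those higher were the uncalled TNNI3, ACTN2, MYH7, MYL7 and TTN (limma adjusted p from 0.0639 to 0.124). Those lower were NKX2-5 and the uncalled MYH6 (limma adjusted p = 0.0531).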

How the data were processed

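One deposited table held the 6 libraries by gene symbol. Per the labels' protocols, RNA was isolated with an RNeasy kit and DNase, and cDNA (Clontech Ultra Low) went into NexteraXT libraries. The submitters' processing notes name bcl2fastq 2.19, kallisto 0.44.0, DESeq2 1.28.1 and GRCh38, without their roles. Annotation and strand use are not given in the sources used here. The deposited values are a signal, gene counts divided by 1 factor per library: 100% of values were whole multiples of the column's step (within 0.001 read), and 0 columns were left unused.

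The members and lists were chosen with earlier results of these data known. Tests used limma 3.58.1 in R 4.3.3 after log2(value + 1), with all 6 libraries, no covariate, and eBayes with a trend. The 15536 genes averaging at least 10 were tested together, and Benjamini-Hochberg adjusted p-values were held to 0.05. The genes named are the members, the other family genes, STK25, up to 4 called genes per list with the largest change, and the nearest genes, of which some are not reported here. Other genes (KCNJ10, MLC1, GK, NFAT5, GFAP, ALDH1L1, SLC1A3, NES, PAX3, KRT7, CLDN3, CLDN4, CDH1, CFD, defining markers at or near 0, overlapping and neighbouring genes) were named after their values were seen. Lengths and positions came from GENCODE 29. Replicates of a genotype differed by more than sampling noise in all pairs (chi-square over its degrees of freedom of 18.9 or more). Alternatives were other pseudocounts, filters, scalings and variance priors, a replicate block, leaving out each library, and edgeR 4.0.16 and DESeq2 1.42.0 on the recovered reads. Leaving out both libraries that stood apart was an alternative chosen after seeing the data. Simulated data with known changes were used to test the fits. Figures were drawn with matplotlib 3.10.9.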

Additional observations from a re-analysis of the deposited data

How the results depend on the processing

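The number of genes called was 1982 (927 higher, 1055 lower; 46.8% higher). It was 798 with a replicate block, 3210 with DESeq2 and 4483 without both libraries that stood apart; leaving out 1 library it ran from 796 to 2181, the lowest of these being without wild-type replicate 1 (796) or 3 (916) and without knockout replicate 3 (962) or 2 (1292). With equal totals 27.4% of the calls were higher and the median over all genes moved to -0.27 (log2), so levels are relative to that choice. The 28 calls over the lists were 44 with DESeq2 and 55 without both libraries that stood apart, and ran from 18 (without knockout replicate 3) to 33 with 1 library left out. The causes were not tested.

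AQP3 ran from -0.71 to 0.17 and AQP8 from -0.0023 to 0.39 when 1 library was left out, and AQP8 was -0.058 with equal totals. The other members kept their sign in every fit run for them; AQP5 and AQP7 could not be fitted at a mean of at least 50. The count of members whose genotypes did not overlap, 6, cannot change in settings that leave the values and the genes as they are. It was 5 with equal totals (AQP1) and with quantile normalization (AQP5), and 7 without knockout replicate 1 or without both libraries that stood apart. At a mean of at least 50, which leaves out AQP5 and AQP7, it was 4.

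Replicate numbers did not pair the libraries: correlations of deviations for equal numbers were -0.235, -0.400 and 0.169. With the block 19 list genes were called; STK25 was no longer past the threshold, and DMD, SLC12A7, KRT18, LAMA2, SOD2, S100B, PAX6, KRT8 and DCN were not either, the list genes with adjusted p-values from 0.0523 to 0.176. Depth limits AQP5, AQP7 and the wild-type values of AQP4, which rest on 7 to 30 wild-type reads per library.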
